A study of Mus musculus with 4 samples.

Results

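The netrin and Slit-Robo guidance genes studied here were 10 genes: the netrins Ntn1 and Ntn4, the netrin receptors Dcc, Unc5c and Unc5d, the ligands Slit1, Slit2 and Slit3, and the receptors Robo1 and Robo2. Their Bmal1 peaks were all rows that carried one of these gene names in the deposited lists of narrow peaks and broad regions, 452 of 94075 rows in 12 lists (52 narrow peaks and 400 broad regions). The rows gave a peak to 8 of the 10 genes, of 12723 genes with a peak in these lists. Bmal1 ChIP-seq was performed on retina of mice at P3 (postnatal day 3; replicates 4 and 5) and P5 (postnatal day 5; replicates 2 and 3), with an anti-Bmal1 antibody and 1 input library. The comparison of the ages was meant to address Bmal1 occupancy of the neural retina before and after vascularization. The authors describe the P3 retina as mainly neuronal but not free of vessels. Retinas of both ages were taken at the same zeitgeber time, and the labels name no genotype, strain, treatment or number of animals per library, so any spread between libraries may be technical. The score of a peak was read as its number of tags per 10 M mapped tags, the meaning it has in HOMER, whose form the lists have, although MACS2 is named as the caller and the program behind the scores is not settled. On that reading, the steps of the scores give 55.2 to 68.3 M tags per library, more than the sequencing depth stated for the study. In these whole-retina libraries, fewer cells with Bmal1 at a place and less Bmal1 per cell cannot be told apart, and no expression was measured with which the labelled tissue could be checked.

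Netrins are secreted, laminin-related proteins that attract axons through Dcc and repel them through Unc5 receptors. Slits are secreted repellents that act through Robo receptors. In the retina, netrin-1 at the optic disc and Dcc on ganglion cell axons guide the axons out of the eye, Slit and Robo proteins keep the axons in the optic fiber layer and shape the chiasm, and Slit2 with Robo1 and Robo2 acts on the sprouting of retinal vessels. Bmal1 is a transcription factor of the circadian clock that binds E-boxes with Clock, most typically CACGTG.

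The sequences of narrow peaks are shown with the E-boxes that they hold. The 3 pooled peaks are ordinary calls, with scores at or below the medians of their lists, 2.56 in the P3 pool and 2.23 in the P5 pool. Capitals mark a flexible E-box, which is CACGTG with C or T at the third and G or T at the fourth place, on either strand, so that every CACGTG is also a flexible E-box. All sequences are from the forward strand of GRCm38 (mm10), as given by RefSeq. The first 3 are the pooled peaks of Slit2 and Unc5d with the highest score of each gene and age, the Dcc peaks not being shown, and the fourth is a Robo1 peak of P3 replicate 4 that lay within a broad region found in both P3 libraries.
Slit2, P3 pooled, chr5:47665203-47665367: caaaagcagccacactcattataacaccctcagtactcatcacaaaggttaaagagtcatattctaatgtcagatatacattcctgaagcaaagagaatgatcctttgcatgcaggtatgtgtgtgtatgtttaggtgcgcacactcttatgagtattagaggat
Unc5d, P3 pooled, chr8:29448959-29449123: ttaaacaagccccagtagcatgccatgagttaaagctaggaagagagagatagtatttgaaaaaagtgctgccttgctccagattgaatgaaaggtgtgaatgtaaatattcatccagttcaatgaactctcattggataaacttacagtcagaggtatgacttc
Unc5d, P5 pooled, chr8:28961768-28961906: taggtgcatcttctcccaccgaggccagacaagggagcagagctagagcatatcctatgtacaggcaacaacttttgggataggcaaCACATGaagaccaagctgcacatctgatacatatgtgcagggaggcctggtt
Robo1, P3 replicate 4, chr16:73494851-73494995: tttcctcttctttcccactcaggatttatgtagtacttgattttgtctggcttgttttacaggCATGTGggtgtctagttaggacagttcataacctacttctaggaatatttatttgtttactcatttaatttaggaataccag
The Slit2 peak was intergenic, 318 kb upstream of the start site (TSS), with a score of 2.32. The Unc5d peak at P3 was intergenic in a LINE element (L1M4c), 229 kb upstream, with a score of 2.56, and that at P5 lay in intron 1 of 17 in a LINE element (Lx4A), 258 kb downstream, with a score of 2.15. The Robo1 peak was intergenic, 832 kb downstream, with a score of 3.44. No letters of the flexible E-box stood in the Slit2 and P3 Unc5d peaks, while the P5 Unc5d peak held CACATG and the Robo1 peak held CATGTG. Over all narrow peaks of these genes, 1 of 4 in the P3 pool, 2 of 2 in the P5 pool and 15 of 46 in P3 replicate 4 held a flexible E-box, as did 33.1%, 31.7% and 29.2% of all narrow peaks of these lists. Each of the 4 sequences was single-copy, with a median of 1 genomic copy of its 31-base words.

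CACGTG itself was found in 1 narrow peak of these genes (1 of 46 in P3 replicate 4, 2.17%, against 1.08% of all 9543 narrow peaks of that library) and in none of the pooled ones. The peak belonged to Robo1, and the same CACGTG stood in a broad region of P3 replicate 4 with a score of 6.71 and of the P3 pool with a score of 4.38. Broad regions are longer (500 bp at the median), and in them CACGTG was found in 6 of 93 regions of the P3 pool (6.45%, against 2.62% of all regions of the list), 5 of 150 in P3 replicate 4 (3.33%, against 3.18%) and 2 of 52 in P3 replicate 5 (3.85%, against 2.49%). It was found in 0 of 25 regions of the P5 pool, 0 of 38 in P5 replicate 2 and 0 of 42 in P5 replicate 3, where 2.36%, 2.85% and 3.30% of all regions held it. At the shares of all regions, 1.08 and 1.39 regions would hold it in the P5 libraries and 4.76 and 1.29 in the P3 libraries, so the counts of the single libraries were near the background at both ages, while the P3 pool held 6 against 2.43. Windows of 66 bases around these sites, with CACGTG in capitals, are shown for 6 of the sites, at the receptors Robo1, Robo2, Unc5c and Unc5d, because this is the letter sequence that Bmal1 and Clock are known to bind.
Robo1, chr16:72213265-72213330: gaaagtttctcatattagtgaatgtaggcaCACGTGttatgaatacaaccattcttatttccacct
Robo1, chr16:73323318-73323383: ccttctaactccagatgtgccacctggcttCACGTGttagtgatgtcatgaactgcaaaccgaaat
Robo1, chr16:73462161-73462226: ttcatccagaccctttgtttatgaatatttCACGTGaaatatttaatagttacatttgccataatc
Robo2, chr16:74595744-74595809: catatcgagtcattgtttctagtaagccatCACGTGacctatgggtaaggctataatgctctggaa
Unc5c, chr3:141589642-141589707: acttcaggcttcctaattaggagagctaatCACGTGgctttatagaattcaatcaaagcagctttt
Unc5d, chr8:29855960-29856025: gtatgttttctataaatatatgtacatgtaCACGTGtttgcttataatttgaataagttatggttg
The first Robo1 window lay in regions of P3 replicate 4 (score 8.52) and the P3 pool (4.05), 450 kb upstream of the TSS. The second lay in regions of P3 replicate 5 (4.57) and the P3 pool (4.72), 660 kb downstream. The third is that of the narrow peak, 799 kb downstream. The Robo2 CACGTG lay at the very edge of a region of P3 replicate 4 (chr16:74594843-74595781) with a score of 9.79, 184 kb upstream. Its window runs past the end of that region. The overlapping region of the P3 pool (score 7.03) ended at 74595633 and did not hold the CACGTG. In Unc5c, the window lay in intron 1 of 15 in a region of the P3 pool with a score of 4.14, and the Unc5d window lay in a region of the P3 pool with a score of 8.85, the highest of any region of these genes in the pooled lists, 636 kb upstream. The Unc5c and Unc5d regions were called in the P3 pool alone, and neither overlapped a broad region of a single library. Sites that are not shown were another Robo1 site in a region of P3 replicate 4 (score 6.34), 515 kb upstream, and those in Dcc introns, 640 kb downstream in regions of P3 replicate 5 (score 7) and the P3 pool (4.05) and 336 kb downstream in a region of P3 replicate 4 (5.62). None of these sites was called in both libraries of an age.

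Narrow peaks were found at 3 of the 10 genes in the P3 pool (Dcc, Unc5d and Slit2), where 10.2% of 21000 protein-coding genes had one. At P5 there were 2 genes (Dcc and Unc5d), against 1.71% of genes. These were 4 of 3625 peaks at P3 (0.110%, 95% Clopper-Pearson interval 0.0301 to 0.282) and 2 of 486 peaks at P5 (0.412%, 0.0499 to 1.48). Such intervals cover counting error only. Of the genome, 0.237% lay nearest to the start sites of the 10 genes. This share was above the P3 value, below the P5 value and within both intervals. The pooled narrow peaks thus showed neither an excess nor a deficit beyond counting error. P3 replicate 4 had 46 narrow peaks at 7 of the 10 genes (21.1% of genes), namely 14 at Robo1, 12 at Dcc, 10 at Slit2, 3 each at Unc5c and Unc5d, and 2 each at Slit3 and Robo2. The other 3 libraries had 0 narrow peaks at any of the 10 genes, where 3.2% (P3 replicate 5), 0.771% (P5 replicate 2) and 4.5% (P5 replicate 3) of genes had one. The narrow calls at these genes in single libraries thus came from P3 replicate 4, which also has the longest list, 9543 peaks against 200 to 1336 in the others. As a share of each library's narrow peaks, the genes had 0.482% in P3 replicate 4 and 0% in P3 replicate 5, P5 replicate 2 and P5 replicate 3. The ages differed by 0.241 percentage points (n = 2 libraries each, SD of the P3 libraries 0.341). As P3 replicate 4 alone was above 0%, every split of the libraries into 2 and 2 gives a difference of this size. The exact permutation test (two-sided) could thus give only p = 1, and neither it nor the SD decides whether the ages differ.

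**Figure D1:**
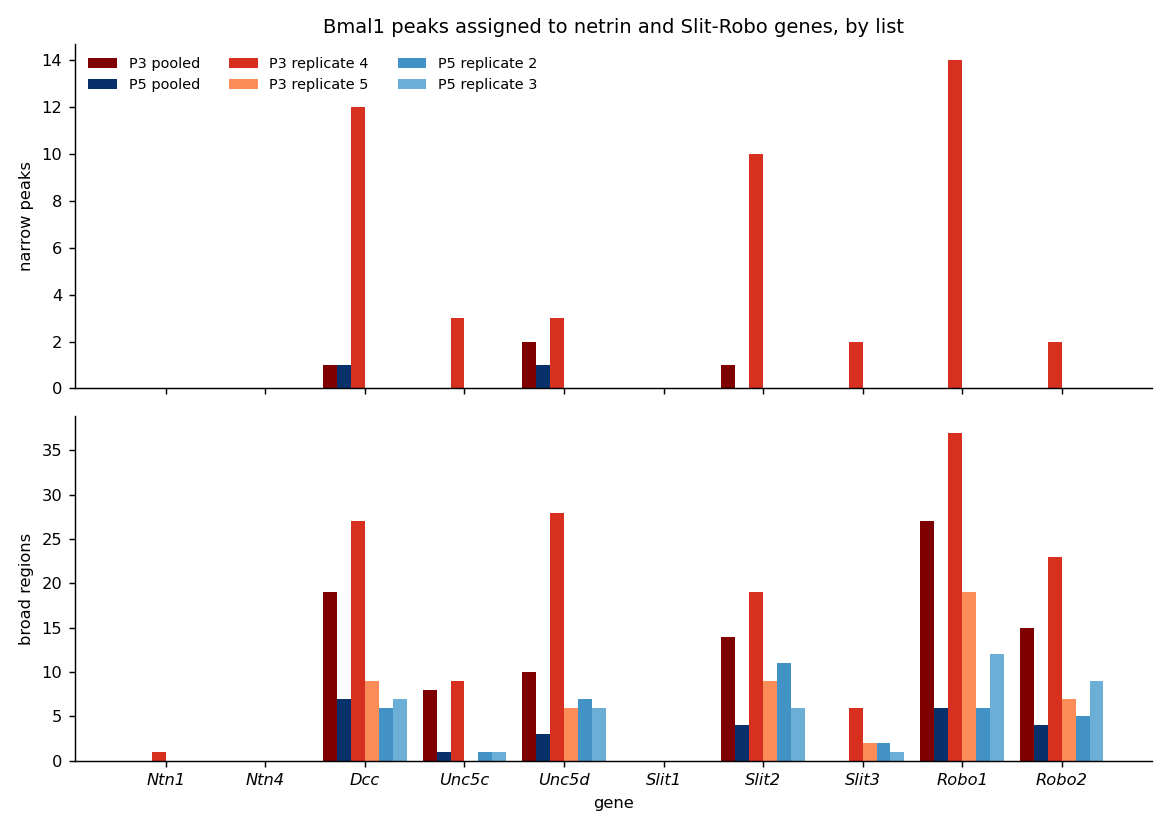
Number of narrow peaks (top) and broad regions (bottom) assigned to each gene, with 1 bar per list (2 pooled lists and 4 libraries). Narrow peaks of single libraries stand at P3 replicate 4 alone, from 2 at Slit3 and Robo2 to 14 at Robo1, while broad regions of Dcc, Unc5d, Slit2, Robo1 and Robo2 occur in all 6 lists.

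Broad regions were found at 6 of the 10 genes in each pooled list, Dcc, Unc5c, Unc5d, Slit2, Robo1 and Robo2 (24.2% of genes had one at P3 and 9.73% at P5). In the libraries there were 8 genes in P3 replicate 4 (31.7% of genes), 6 in P3 replicate 5 (17.2%), 7 in P5 replicate 2 (13.8%) and 7 in P5 replicate 3 (17.4%). The genes had 93 regions in the P3 pool and 25 in the P5 pool. P3 replicate 4 had 150 regions and P3 replicate 5 had 52, both above the 38 of P5 replicate 2 and the 42 of P5 replicate 3. All regions of the genome were ordered by age in the same way, with 25380 and 10782 at P3 against 7435 and 9915 at P5. As a share of each list, the genes had 0.591% in P3 replicate 4, 0.482% in P3 replicate 5, 0.511% in P5 replicate 2 and 0.424% in P5 replicate 3, and the ages overlapped. The difference of 0.0693 percentage points (0.537% ± 0.0769 at P3 and 0.467% ± 0.0619 at P5, SD, n = 2 each) gave p = 0.667 in the exact permutation test.

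Peaks are given to the gene with the nearest TSS, so a gene that stands alone in a large stretch of the genome receives more of them. By the curated RefSeq start sites, 6.27 Mb lay nearest to the 10 genes, 0.237% of the genome, and 5 of them (Dcc 1.18 Mb, Robo2 1.14 Mb, Robo1 1.05 Mb, Unc5d 0.987 Mb and Slit2 0.938 Mb) were among the 315 genes of 26141 with 0.9 Mb or more. Counted by these same start sites, the genes had 0.468% of the broad regions of the P3 pool (0.378 to 0.574) and 0.439% of the P5 pool (0.272 to 0.670), both above their share of the genome. Narrow peaks counted in this way were below that share in both pools. The genes had 0.0828% of them at P3 (0.0171 to 0.242) and 0.206% at P5 (0.00521 to 1.14), and both intervals held the share. In P3 replicate 4 they had 0.419% of the narrow peaks, above the share, and in the other libraries 0%. Genes with large stretches had more broad regions per Mb in general. For the 5 genes the density was 15.9 regions per Mb in the P3 pool (12.7 to 19.6, exact Poisson), against 13.3 for all 315 genes and 7.42 for the whole genome. In the P5 pool it was 3.78 per Mb (2.31 to 5.83), against 3.25 and 1.81. P3 replicate 4 was the list in which the 5 genes stood farthest above the 315, with 21.9 per Mb (18.1 to 26.3) against 14.9. In the other 3 libraries the values of the 315 genes, 7.11, 4.83 and 6.07 per Mb, lay within the intervals of the 5 genes (7.93, 6.04 and 6.80 per Mb). Over the 10 genes, the Spearman rank correlation between the stretch and the number of broad regions was 0.888 in the P3 pool and 0.897 in the P5 pool, a description over genes that share their libraries. These numbers of regions were those of the deposited gene names, while the stretches were from the curated start sites. The stretches of the 10 genes had a GC content of 38.6%, those of the 315 genes 37.9% and the genome 41.7%.

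**Figure D2:**
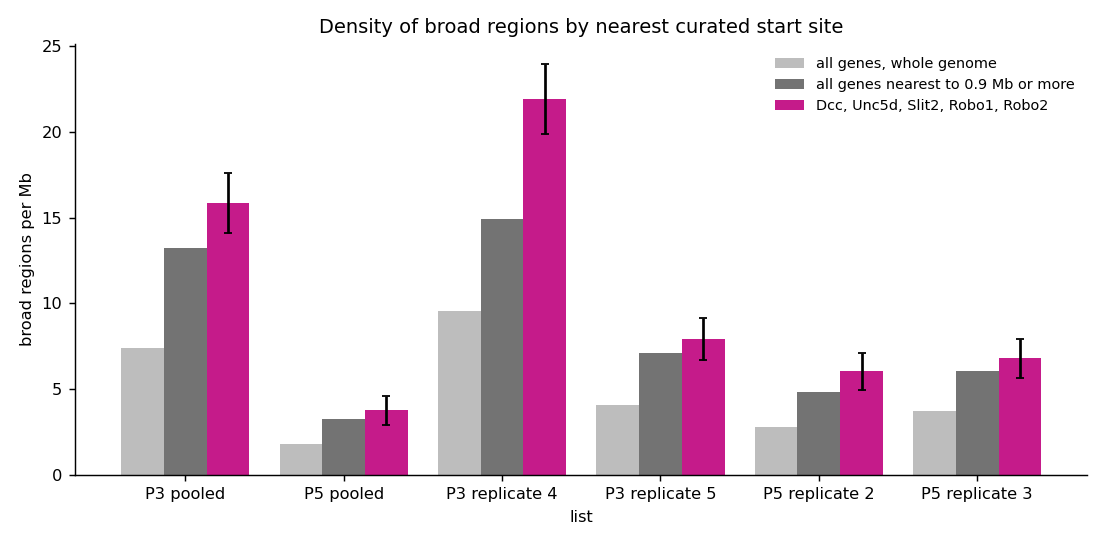
Broad regions per Mb (y axis) in each list, for the whole genome, for all 315 genes with 0.9 Mb or more nearest to their start site, and for the 5 netrin and Slit-Robo genes among them, with error bars of the square root of the count. The 5 genes are above the genome in every list, and above the 315 genes by the most in P3 replicate 4 (21.9 against 14.9 per Mb).

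The netrin ligands were almost without peaks. Ntn1, the main attractant of the optic disc, had 1 broad region in all lists, in P3 replicate 4 with a score of 4.71, which was intergenic and 17.8 kb upstream of the TSS at chr11:68404369-68404869. Ntn4, a netrin of basement membranes including those of vessels, had 0 peaks of either kind. Their stretches are short, 0.106 Mb for Ntn1 and 0.0381 Mb for Ntn4, in which the genome-wide density of the longest list would place 1.01 and 0.365 broad regions. In that list, P3 replicate 4, Ntn1 had 1 region and Ntn4 had 0, close to what their stretches give. In the other lists Ntn1 had 0 regions, where the density of each would place 0.191 to 0.784.

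Dcc, the attractant netrin receptor of ganglion cell axons, had 19 broad regions in the P3 pool and 7 in the P5 pool. By library there were 27 in P3 replicate 4, 9 in P3 replicate 5, 6 in P5 replicate 2 and 7 in P5 replicate 3, so both P3 libraries were above both P5 libraries, P3 replicate 5 only by 2 regions. By the nearest curated TSS the counts were 24, 6, 6 and 5, in which P3 replicate 5 and P5 replicate 2 are tied, and as shares of the broad lists the deposited counts were 0.106%, 0.0835%, 0.0807% and 0.0706%. Of its 75 regions over the 6 lists, 53 lay in introns of this gene of 1097 kb, 25 of them in intron 1 of 28, and 22 lay upstream. The closest one was 6.93 kb downstream of the TSS in intron 1, with a score of 6.34 in P3 replicate 4 and 3.97 in the P3 pool. The narrow peak of the P3 pool was on chromosome 18 at 72585856-72586020, 235 kb upstream in a simple repeat with a score of 2.81 or 34 tags (exact Poisson interval 23.6 to 47.5). It was the only pooled narrow peak of the 10 genes that overlapped a narrow peak of a single library, P3 replicate 4 (1 of 4 at P3, where 24.6% of all narrow peaks of the P3 pool did). The P5 peak was at another place, 535 kb upstream, with a score of 2 or 26 tags (17 to 38.1), the lowest narrow score of these genes. Both pooled Dcc peaks lay inside a broad region of the same list.

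The repulsive netrin receptors Unc5c and Unc5d differed from each other. Unc5c had 8 broad regions in the P3 pool and 1 in the P5 pool, with 9 in P3 replicate 4, 0 in P3 replicate 5 and 1 in each P5 library, so that P3 replicate 4 was the only P3 library with a region. Of the 8 regions of the P3 pool, 2 overlapped a region of P3 replicate 4 and the other 6 overlapped none of either P3 library. The scores in P3 replicate 4 were 5.08 to 7.25, and the closest region was 7.07 kb upstream of the TSS (score 6.34). Unc5d had 10 regions in the P3 pool and 3 in the P5 pool, with 28 in P3 replicate 4, 6 in P3 replicate 5, 7 in P5 replicate 2 and 6 in P5 replicate 3. Without P3 replicate 4, the libraries of the ages had nearly equal counts for this gene. Of its 60 regions, 44 were upstream and intergenic, and the strongest, at chr8:29855260-29856492, is that with the CACGTG shown above. That region overlapped no broad region of a single library. A second narrow peak of the P3 pool lay in intron 3 of 17, with a score of 2.23 or 27 tags (17.8 to 39.3). None of the 3 pooled narrow peaks of Unc5d overlapped a narrow peak of a single library or a broad region of its own list. Most narrow peaks do not, since 24.6% and 3.15% of those of the P3 pool overlapped a peak of P3 replicates 4 and 5, 3.70% and 21.2% of those of the P5 pool one of P5 replicates 2 and 3, and 22.8% and 17.9% lay in a broad region of their list.

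Among the Slit ligands, Slit2 had the most peaks, 63 broad regions and 11 narrow peaks over the lists, against 11 and 2 for Slit3. Slit2, the repellent and vascular ligand, had 14 broad regions in the P3 pool and 4 in the P5 pool, with 19 in P3 replicate 4, 9 in P3 replicate 5, 11 in P5 replicate 2 and 6 in P5 replicate 3, so the ages overlapped. Of its 63 regions, 58 were upstream, up to 1015 kb from the TSS. The closest peak of any gene here lay 5.30 kb downstream of a Slit2 TSS in P3 replicate 4, with a score of 5.08, and at 5.44 kb in the P3 pool with a score of 4.05. The highest narrow score of the 10 genes, 5.44, was that of a Slit2 peak in P3 replicate 4, 442 kb upstream, which did not overlap the Slit2 peak of the P3 pool. Slit3 had 0 regions in the pooled lists, 6 in P3 replicate 4, 2 each in P3 replicate 5 and P5 replicate 2, and 1 in P5 replicate 3. The stretch of Slit3 (0.392 Mb, GC 44.9%) is similar in length to that of Unc5c (0.360 Mb, GC 37.6%), for which the P3 pool had 8 regions where its genome-wide density would place 2.67. Slit1 had 0 peaks in any list, and its stretch of 0.0792 Mb would receive 0.759 broad regions at the density of the longest list.

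Robo1, a Slit receptor of commissural axons, had the most regions of the 10 genes in the P3 pool, 27, and 6 in the P5 pool. There were 37 in P3 replicate 4, 19 in P3 replicate 5, 6 in P5 replicate 2 and 12 in P5 replicate 3, so both P3 libraries were above both P5 libraries in the deposited assignment. In P3 replicate 5, 36 of 4322 genes had more regions than Robo1 in this assignment, while by the nearest curated TSS Robo1 had 6 regions there in place of 19. Robo2, the main Slit receptor of retinal ganglion cell axons, had 15 and 4 regions in the pooled lists, and 23, 7, 5 and 9 in the same libraries, so the ages overlapped in this assignment. The highest score of any region of these genes, 11.8, was at Robo1 in P3 replicate 4, 385 kb upstream, where P3 replicate 5 had a region with a score of 4.57 and the P3 pool one of 4.88. The highest of Robo2 was 9.79 in P3 replicate 4.

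The place of the Robo regions depends on the transcript taken as the gene. The lists called 61 of the 63 Robo2 regions intergenic and upstream, but all 63 lay within the curated RefSeq span of Robo2 (1555 kb), which has a second start site far upstream. Of the 107 Robo1 regions, 94 were called intergenic, and 55 of these lay within the full RefSeq span of Robo1 (1020 kb, predicted transcripts included), while the curated span is 383 kb. By the nearest curated TSS, 57 of the 107 Robo1 regions went to the transcript 8030451O07Rik, and Robo1 kept 50. With this rule Robo2 had 31 broad regions in the P3 pool, 27.2 per Mb, and Robo1 had 14, 13.3 per Mb. The order of the ages changed with the rule for both genes. Robo1 then had 19, 6, 2 and 8 regions in P3 replicates 4 and 5 and P5 replicates 2 and 3, so the ages overlapped, and Robo2 had 35, 15, 7 and 13, so both P3 libraries were above both P5 libraries. Over all 10 genes, 357 of 452 peaks kept their gene.

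**Figure D3:**
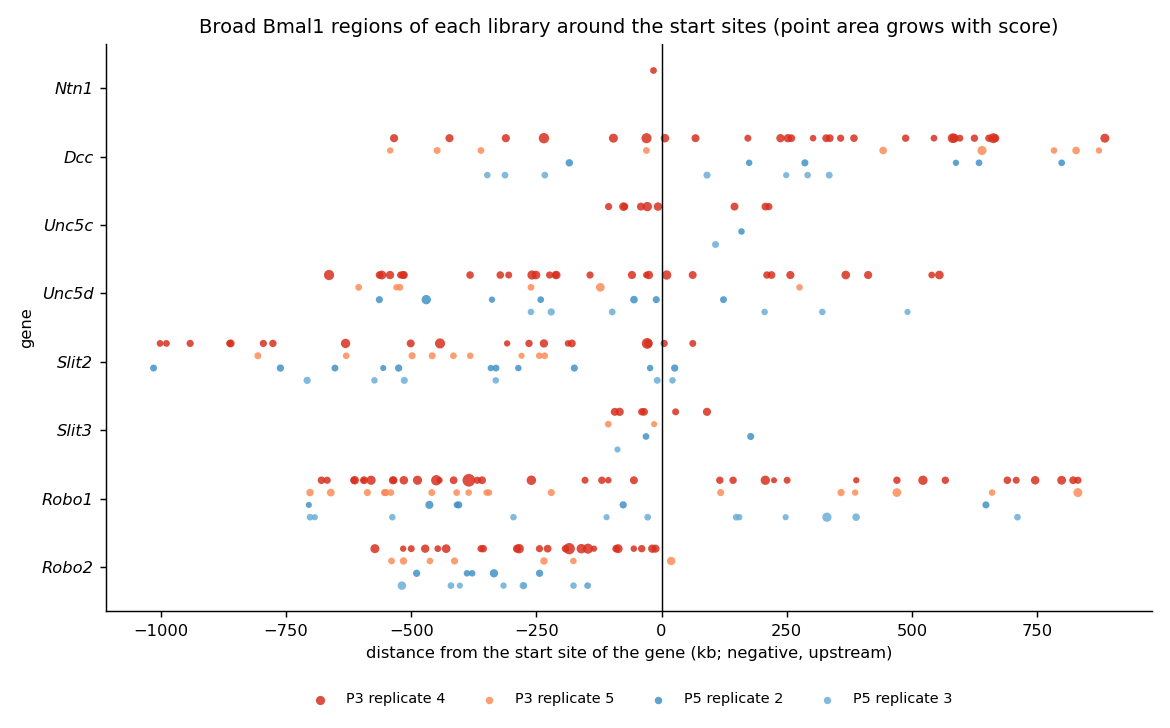
Distance of each broad region from the TSS of its gene (x axis, kb, negative upstream), with 1 row of points per library and a point area that grows with the score. Points near 0 are few, and most regions of Slit2 and Robo2 lie upstream while those of Dcc lie on both sides.

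No peak of the 10 genes was in a promoter or an exon, which held 0.552% and 0.607% of all peaks of the 12 lists, so few would be found among 452. No narrow peak was within 10 kb of a TSS, that is 0 of 4 in the P3 pool, 0 of 2 in the P5 pool and 0 of 46 in P3 replicate 4. Of all narrow peaks of these lists, 13.6%, 14.4% and 14.1% were, and the pooled peaks are too few to set 0 apart from such shares. Of the broad regions, 2 of 93 in the P3 pool, 0 of 25 in the P5 pool, 3 of 150 in P3 replicate 4, 0 of 52 in P3 replicate 5, 0 of 38 in P5 replicate 2 and 1 of 42 in P5 replicate 3 were within 10 kb, where 9.43 to 11.1% of all regions were. The median distance of the broad regions was 284 to 464 kb in the 6 lists, against 107 to 128 kb over all regions. A long stretch has a smaller share of its positions near a TSS. These distances and the low shares within 10 kb thus cannot be told apart from the length of the stretches, which was not tested. Annotated repeats held 15.8 to 32.0% of the broad regions of these genes, against 27.4 to 31.2% of all. The scores were near those of all peaks, with a median over these genes of 4.30 in the P3 pool, where all regions had 4.22, and 4.07 in the P5 pool, where all had 4.07.

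The libraries agreed on few places. The narrow peaks of single libraries formed 46 places at these genes, of which 0 were found in 2 or more libraries, and over the genome 29 of 11991 places were (0.242%). The broad regions formed 269 places, of which 13 (4.83%) were found in 2 libraries and 0 in 3 or more. Over the genome, 1868 of 51574 places (3.62%) were found in 2 or more libraries, so the share of these genes was near the genome-wide share. Robo1 had 6 of these places (of 68), Robo2 had 3 (of 41), Unc5d had 2 (of 45), and Dcc (of 48) and Slit2 (of 44) had 1 each. Both P3 libraries held 4 of the 13 places, both P5 libraries held 1, and a P3 and a P5 library together held 8. The place held by both P5 libraries was at Slit2, chr5:47651807-47652676, 331 kb upstream in an LTR element (ORR1D2), with scores of 4.84 in P5 replicate 2, 4.54 in P5 replicate 3 and 4.99 in the P5 pool. A place at Robo1, chr16:71960764-71961355, 702 kb upstream, was the only one of the 13 with a region in both pools, with scores of 5.33 in P3 replicate 5, 4.69 in P5 replicate 3, 4.05 in the P3 pool and 4.45 in the P5 pool. At Dcc, the place 30 kb upstream had scores of 8.16 and 4.72 in the P3 libraries but no region in the P3 pool. Of the 13 places, 5 had a region of a pooled list. Between the pools, 2 of 93 regions of P3 (2.15%, against 1.66% of all regions) and 2 of 25 of P5 (8%, against 6.84%) overlapped. Of the narrow peaks, 0 of 4 and 0 of 2 did, and 0.221% and 1.65% of all.

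**Figure D4:**
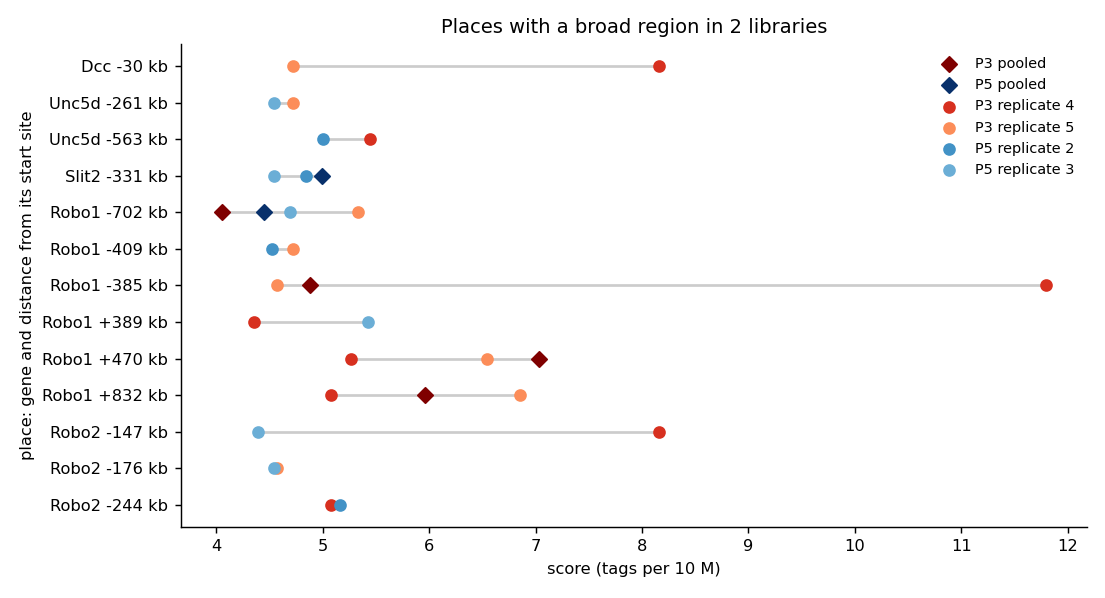
Score (x axis, tags per 10 M) of each list at the 13 places with a broad region in 2 libraries, 1 row per place, with circles for libraries and diamonds for pools. The widest range is at Robo1, from 4.57 in P3 replicate 5 to 11.8 in P3 replicate 4, and 8 of the rows join a P3 and a P5 library.

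The other genes of the pathway had 46 broad regions in the P3 pool and 10 in the P5 pool. Of 36 further receptors, netrins, modulators and effectors, 4 had a narrow peak in the P3 pool and 1 in the P5 pool (10.2% and 1.71% of genes), and 11 and 5 had a broad region (24.2% and 9.73%). Flrt2 and Flrt3, membrane proteins that bind Unc5 receptors, were the richest, with 15 and 18 broad regions in the P3 pool and 5 and 2 in the P5 pool. These counts were not set against the length of their stretches. Flrt2 had a narrow peak in each pool, 773 kb upstream with a score of 2.32 at P3 and 505 kb upstream with 2.38 at P5, and Flrt3 had 3 at P3, with scores of 2.32 to 2.48. Trio, a guanine nucleotide exchange factor downstream of Dcc, had a narrow peak at P3 19.1 kb upstream with a score of 2.48. Enah, an actin regulator that acts downstream of Robo receptors, had one 33.6 kb downstream with a score of 3.39. The receptors Robo3 and Robo4 and the netrins Ntn3 and Ntn5 had 0 peaks in any list. By broad regions per share of the genome, the 10 genes (0.468% of regions on 0.237% of the genome in the P3 pool) were similar to 22 Eph receptors and ephrins (0.657% on 0.340%) and above the 36 further genes (0.249% on 0.231%). The 20 semaphorins lay between these lists (0.244% on 0.160%), and the differences were not tested. Among 14 clock output genes that Bmal1 is known to bind, 0 had a narrow peak of a pooled list within 10 kb of a TSS, and 2.33% of all genes had one. In P3 replicate 4, Per3 had a narrow peak 9.30 kb downstream of its TSS (score 3.81), and Bhlhe40 had a broad region at -9.40 kb, upstream of its TSS (score 6.34). Each was 1 of the 14 genes for its kind of call. Of all genes, 5.32% had a narrow peak and 10.3% a broad region within 10 kb in this library.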

How the data were processed

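Bmal1 ChIP-seq libraries of P3 and P5 retina, 2 per age, were analysed from the deposited lists of narrow peaks and broad regions per library and per age. The authors trimmed reads with Trim Galore, aligned them to GRCm38 (mm10) with bowtie2 and called peaks against input, with MACS2 named as the caller. The labels also name hg38, and no source used here states a calling threshold. The deposited peak score is a signal normalized to depth, read here as tags per 10 M from the HOMER form of the lists, which was not settled against the caller named. Start, end and distance to the TSS, in bp, and gene names were used as deposited, and the list of all libraries pooled was left out. The genes and gene lists were chosen with earlier results of these data known. All 10 genes were named, and further pathway genes where a pooled list had a narrow peak. To find the tags per list, the step between scores was estimated, with a tolerance of 0.0052. Stretches of the genome were divided among curated RefSeq start sites (GRCm38.p6) by distance, and this annotation also gave the background of 21000 protein-coding genes. Broad and narrow overlaps needed 1 base. Motifs and 31-base words were counted on both strands. Scripts used Python 3.11.15, numpy 2.4.6, scipy 1.17.1, pandas 2.3.3 and numba 0.67.0, and were tested on simulated data. The alternatives tried are given with their effect in the closing section.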

Additional observations from a re-analysis of the deposited data

How the results depend on the processing

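No paired analysis was possible because the ages share no replicate numbers. With broad calls in place of narrow ones, 6 of the 10 genes had a peak at each age, with 93 peaks at P3 and 25 at P5, and 13 places were found in 2 libraries instead of 0. Restricting narrow peaks to scores at or above the median of the list left 2 peaks at P3 and 0 peaks at 0 genes at P5, and of the broad regions it left 57 and 14. Within 100 kb of a TSS, 0 genes and 0 narrow peaks remained at either age. Counting narrow peaks in the RefSeq gene bodies gave 2 at P3 and 1 at P5, peaks outside repeats 2 and 1, and the nearest curated start site 1 peak at P5. For the P3 and P5 pools, exact CACGTG was found in 0 narrow peaks, and the flexible E-box with 300 bp on either side in 4 at P3. Pooled lists were not called again without a library, so the list of a single library was taken in place of the pool. For P3 this gave 0 to 7 genes, 0 to 46 narrow peaks and 52 to 150 broad regions, the lower values from P3 replicate 5. For P5 it gave 0 genes, 0 narrow peaks and 38 to 42 broad regions. The difference between the ages in the share of narrow peaks was 0 without P3 replicate 4 and 0.482 percentage points without P3 replicate 5. In all, 25 of 62 alternatives were counted as leaving the value, 37 as moving it and 0 as reversing it. Only the difference in shares could be counted as reversed, since counts have no direction. That difference was counted as left even where it fell to 0 without P3 replicate 4, so the tally does not measure robustness. The alternatives for broad regions were chosen after seeing the data. Narrow peaks rest on few tags (14 to 30 in P3 replicate 4), and with 2 libraries per age the exact permutation test cannot give a p below 0.33.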
